A study of Mus musculus with 26 samples.

Results

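The imprinted mouse genes Plagl1, H19, Igf2, Igf2r, Rian, Meg3, Cdkn1c and Impact were followed in RNA-seq libraries of CD4+ T cells. They are 8 of the 21761 genes counted and were picked by symbol because several of them moved with vitamin C or with loss of TET enzymes in these same libraries. The 3 comparisons behind that choice, vitamin C added to TGFb cultures with and without retinoic acid and Tet2/3-deficient against control cells, are therefore given for these genes as values, with no test. Comparisons that the choice did not use were tested, except where a gene's high libraries in that choice are also the libraries set against others: such values are given with SE and no p.

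All 26 libraries were made from spleen and lymph node cells of mice on the C57BL/6 background that carried the Foxp3-eGFP reporter, in which green fluorescence marks expression of Foxp3, the transcription factor of regulatory T (Treg) cells. A first table held 20 libraries. Of these, 4 were of CD4+eGFP+ Treg cells sorted from mice of 3 weeks with floxed Tet2 and Tet3 alleles and the CD4-Cre transgene (Tet2/3-deficient), and 4 were of such cells from mice with the same floxed alleles and no Cre (control). CD4-Cre acts from the thymus onwards, so conventional T cells of those mice lose the genes too. The other 12 libraries, 2 per group, came from reporter mice of 5 to 6 weeks and were induced Treg (iTreg) cultures with TGFb, retinoic acid and vitamin C, with TGFb and vitamin C, with TGFb and retinoic acid, or with TGFb alone, cells activated through CD3 and CD28 (Th0), and sorted naive CD4+ cells. A separate table held 3 libraries of TGFb iTreg cells that were restimulated through CD3 and CD28 and sorted as Foxp3-negative cells 6 days later, and 3 of Foxp3-positive TGFb iTreg cells sorted on day 6 of culture, from reporter mice of 12 to 14 weeks. The groups of this table differ both in restimulation and in the Foxp3 sort, so that for every gene below these cannot be told apart. The 2 tables were not pooled. The labels do not say which libraries came from separate animals or cultures, so p-values measure the spread between libraries.

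An imprinted gene is expressed mainly from the allele inherited from 1 parent, and the difference is kept by DNA methylation at imprinting control regions. TET enzymes oxidise 5-methylcytosine, the methylated base, and vitamin C is a cofactor that raises their activity. Plagl1 encodes a zinc finger transcription factor expressed from the paternal allele, which binds and regulates other imprinted genes. H19, a maternally expressed noncoding RNA, and Igf2, a paternally expressed growth factor, lie next to each other and share enhancers, with a CTCF-bound control region between them. Igf2r, maternally expressed in the mouse, encodes the receptor that takes IGF2 to lysosomes for degradation. Rian and Meg3 are maternal noncoding RNAs of the Dlk1-Dio3 cluster, Cdkn1c encodes the cyclin-dependent kinase inhibitor p57, and Impact encodes an inhibitor of the GCN2 arm of the amino acid stress response. Several of these genes are highly expressed in the embryo and are turned down after birth. The libraries do not separate the alleles of these genes, and the strand setting of the counting is not given in the sources used here. Reads of Igf2r and Airn, of Igf2 and Igf2os, of Plagl1 and Hymai, and of Meg3, Rian and Rtl1, whose genes overlap, could therefore not be told apart.

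CpG dinucleotides are the sites that methylation and TET enzymes act on, so promoter windows of 4 of the genes are shown with each CpG in capitals. They were taken from RefSeq (GRCm38.p6, 300 bases around an annotated start), 5′ to 3′ on the gene's strand, and where a gene has several starts the window with the most CpG is given.
Plagl1, chr10:13090582-13090881, plus strand: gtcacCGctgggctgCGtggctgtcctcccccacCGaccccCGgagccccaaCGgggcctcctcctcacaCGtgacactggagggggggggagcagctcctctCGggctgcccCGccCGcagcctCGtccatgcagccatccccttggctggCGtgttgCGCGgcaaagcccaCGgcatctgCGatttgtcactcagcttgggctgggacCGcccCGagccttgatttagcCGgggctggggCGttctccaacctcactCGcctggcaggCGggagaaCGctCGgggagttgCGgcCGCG
Igf2, chr7:142658755-142659054, minus strand: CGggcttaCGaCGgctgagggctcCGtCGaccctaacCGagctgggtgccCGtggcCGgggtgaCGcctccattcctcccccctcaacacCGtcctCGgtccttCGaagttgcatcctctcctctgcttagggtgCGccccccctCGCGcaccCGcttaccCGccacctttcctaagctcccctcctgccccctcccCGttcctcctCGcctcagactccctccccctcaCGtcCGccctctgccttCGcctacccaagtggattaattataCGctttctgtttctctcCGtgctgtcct
Igf2r, chr17:12769657-12769956, minus strand: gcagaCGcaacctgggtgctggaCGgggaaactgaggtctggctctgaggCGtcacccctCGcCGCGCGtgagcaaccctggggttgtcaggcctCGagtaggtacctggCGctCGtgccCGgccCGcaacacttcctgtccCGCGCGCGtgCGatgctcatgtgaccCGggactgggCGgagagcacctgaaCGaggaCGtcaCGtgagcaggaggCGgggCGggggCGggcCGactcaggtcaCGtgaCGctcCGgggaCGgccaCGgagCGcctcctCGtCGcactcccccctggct
Meg3, chr12:109540746-109541045, plus strand: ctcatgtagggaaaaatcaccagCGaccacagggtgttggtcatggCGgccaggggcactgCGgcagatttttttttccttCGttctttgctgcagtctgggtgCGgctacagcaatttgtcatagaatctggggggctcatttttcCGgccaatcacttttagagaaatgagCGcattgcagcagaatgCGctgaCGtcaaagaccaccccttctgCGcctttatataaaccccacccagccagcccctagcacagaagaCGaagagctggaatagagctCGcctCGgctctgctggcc
The Plagl1 window holds 26 CpG, and 16.9% of the 32851 promoter windows in the table hold at least as many. The Igf2 window holds 24 CpG, the Igf2r window 34 (7.7% of windows hold at least as many) and the Meg3 window 13 (37.9%), against a median of 7 over those windows. The other 3 Igf2 windows hold 14, 7 and 2 CpG, the other Meg3 window holds 1 and the Rian window holds 0. The count of CpG describes these letters and says nothing of their methylation. H19 is also the host of a microRNA, miR-675, whose mature forms are shown with the seed (bases 2 to 8) in capitals. These libraries of polyadenylated RNA do not measure it.
mmu-miR-675-5p: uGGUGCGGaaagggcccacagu
mmu-miR-675-3p: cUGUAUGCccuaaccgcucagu

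Total counts were 13397602 to 17672302 per ex vivo Treg library, 9647669 to 11640223 per cultured or naive library and 11293704 to 17219805 in the restimulation table. Levels are given as CPM, a gene's count scaled to a common library total. The deleted genes were still counted: Tet3 ranged over 96.3 to 114 CPM in Tet2/3-deficient Treg cells and 126 to 172 CPM in control Treg cells. Tet2 overlapped, at 12.0 to 16.5 CPM in Tet2/3-deficient and 9.96 to 15.7 CPM in control cells. Counts are summed over all exons of a gene, so they do not show the floxed exons alone. Foxp3 was at 542 to 611 CPM in Tet2/3-deficient and 606 to 737 CPM in control Treg cells, at 540 to 973 CPM in the iTreg cultures of the first table and at 302 to 338 CPM in day 6 iTreg cells, but at 15.5 to 26.3 CPM in Th0 and naive cells and 13.5 to 17.8 CPM in restimulated Foxp3-negative cells. The 7 T cell markers found in the tables (of 8 listed) were detected in every group.

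Plagl1 was high in vitamin C cultures and in ex vivo Treg cells, and low elsewhere. It had 27.8 and 36.2 CPM with TGFb and vitamin C, against 2.28 and 2.10 CPM with TGFb alone. With retinoic acid in both arms, it had 18.8 and 14.9 CPM with vitamin C, against 1.61 and 1.20 CPM without it. Both vitamin C groups lay wholly above the cultures they are set against, with a log2 fold change of 3.84 (14.3-fold) in the absence and 3.55 (11.7-fold) in the presence of retinoic acid. The Tet2/3-deficient Treg libraries had 6.87, 5.93, 6.73 and 7.65 CPM, and the control Treg libraries had 28.6, 23.6, 26.2 and 30.9 CPM. Every Tet2/3-deficient library was below every control library, and the log2 fold change was -2.05 (4.13-fold lower). These 3 differences are what the gene was picked for.

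Comparisons of Plagl1 outside that choice gave the following. Retinoic acid added to TGFb gave a log2 fold change of -0.64 ± 0.35 (SE, adjusted p = 0.231, 2 libraries per group), which did not pass the threshold. Added beside vitamin C, where both groups are high libraries of the choice, it gave -0.93 ± 0.17, and the groups did not overlap. Plagl1 was higher with TGFb than in Th0 cells: 25 and 22 reads were counted with TGFb, against 1 and 1 in Th0, a ratio of CPM of 22.3 (exact 95% counting interval 5.83 to 189, adjusted p = 0.000156). Plagl1 passed the filter on low counts through cultures other than Th0, where it is higher, so these reads are a description. Th0 and naive cells both stood near 0, with 1 and 1 reads in Th0 and 1 and 3 in naive cells (adjusted p = 0.418). Control Treg cells, also high libraries of the choice, lay above naive cells, which had 0.101 and 0.311 CPM, with a log2 fold change of 6.86 ± 0.31. The size of that difference rests on the few naive reads: it was 6.29 without naive library 1 and 7.83 without naive library 2. Control Treg and naive libraries also differ in age and in the floxed alleles, and the labels name a mini or a micro extraction kit without saying which libraries had which, so that for every gene below these cannot be told apart from cell type. In bulk samples, fewer cells with the transcript and less transcript per cell cannot be told apart either.

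Markers of other cells differed between these sorted groups. Erythroid and platelet markers summed to 198 to 409 CPM in Tet2/3-deficient and 294 to 713 CPM in control Treg cells, with all 7 detected in both, against 1.21 to 2.38 CPM in naive cells. Most of that sum came from Hba-a2 (201 and 365 CPM) and Hbb-b1 (62.0 and 108 CPM in Tet2/3-deficient and control cells). The platelet markers Pf4 (0.646 and 0.0911 CPM) and Ppbp (0.503 and 0.0326 CPM) ran the other way. B cell markers summed to 41.0 to 59.0 CPM in Tet2/3-deficient and 43.1 to 104 CPM in control Treg cells, with all 5 detected in both, against 2.01 to 2.80 CPM in naive cells, where Pax5 was at 0. Myeloid and dendritic markers summed to 135 to 231 CPM in Tet2/3-deficient and 137 to 149 CPM in control Treg cells, with all 9 detected in both, against 54.0 to 54.7 CPM in naive cells, where Csf1r was at 0. Among them Itgam averaged 43.1 CPM in Tet2/3-deficient and 9.496 CPM in control Treg cells, and Csf1r 32.0 and 18.9 CPM. Lyz2 was near equal (4.99 and 4.90 CPM), and Cst3 (92.9 and 96.1 CPM) and Itgax (0.799 and 0.865 CPM) ran slightly the other way. The part of such cells in the ex vivo values of the 8 genes was not tested.

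**Figure D1:**
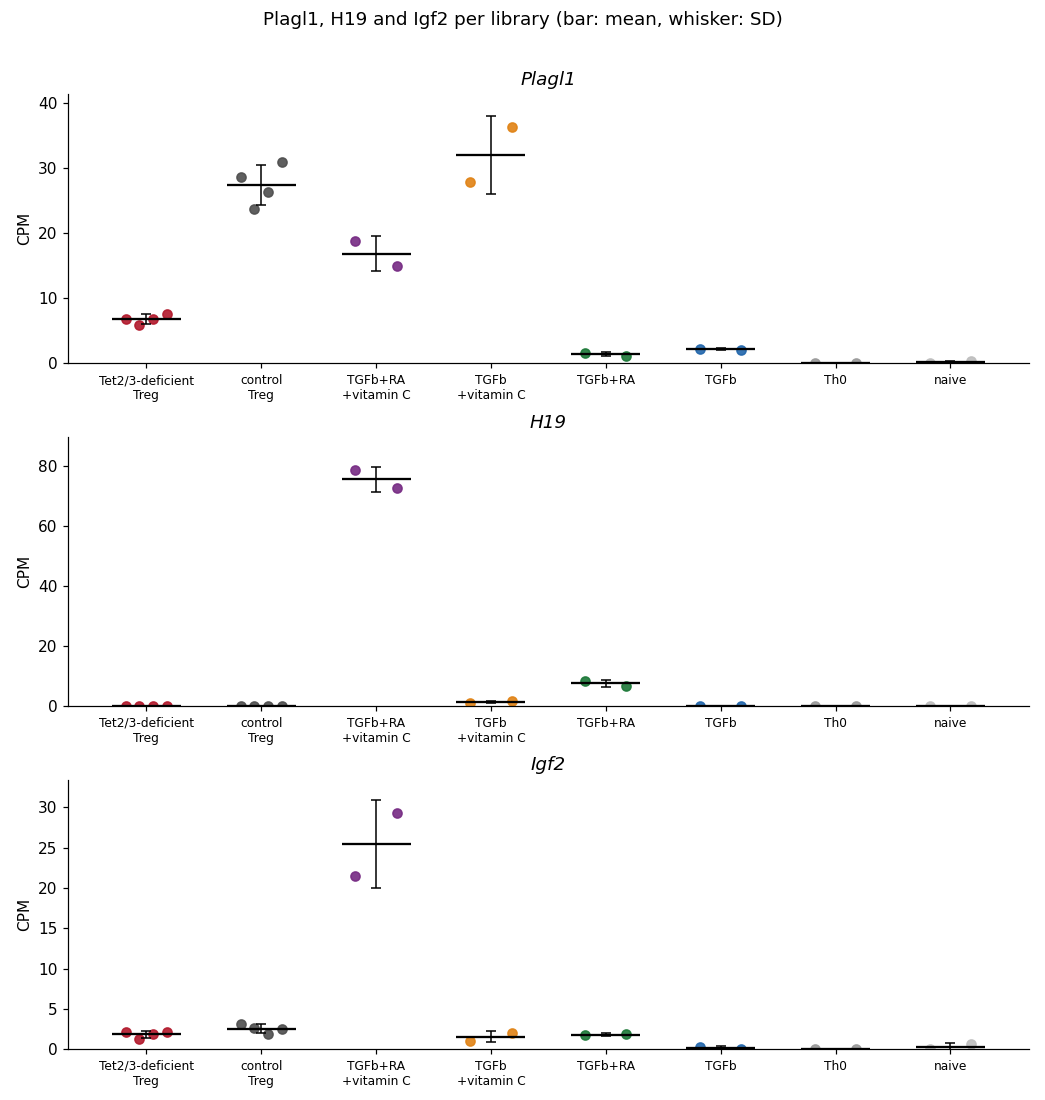
CPM of Plagl1, H19 and Igf2 in each library of the first table (points), with the group mean (bar) and SD (whisker), for 4 Tet2/3-deficient and 4 control Treg libraries and 2 libraries in each other group; RA is retinoic acid. Plagl1 is high with vitamin C and in control Treg cells, whereas H19 and Igf2 are highest where retinoic acid and vitamin C were both present, at 75.7 and 25.4 CPM.

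H19 was found in cultures with retinoic acid or vitamin C and in almost no other library of the first table. Its 2 libraries with TGFb, retinoic acid and vitamin C had 818 and 846 reads (78.7 and 72.7 CPM), against 13 and 18 reads (1.23 and 1.66 CPM) with TGFb and vitamin C. This difference, retinoic acid added in the presence of vitamin C, was 5.69 ± 0.20 on the log2 scale (51.7-fold), given with no test because both groups are high libraries of the choice. Retinoic acid added to TGFb alone gave 89 and 68 reads, against 0 and 1 read in TGFb cultures. The ratio of CPM was 164 (exact 95% counting interval 28.96 to 6507, adjusted p = 1.32e-06). The groups did not overlap in either comparison. The TGFb libraries, with and without retinoic acid, also enter the vitamin C comparisons for which H19 and Igf2 were picked, so their tests are not fully independent of the choice.

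Set by vitamin C, the same H19 values read as follows, as a description. With retinoic acid, the 2 libraries with vitamin C averaged 75.7 ± 4.24 CPM and the 2 without it 7.61 ± 1.13 CPM (SD), a log2 fold change of 3.29 (9.79-fold). Without retinoic acid, 31 reads in all with vitamin C stood against 1 read in TGFb cultures, a ratio of CPM of 31.0 that rests on that 1 read. Because the gene was chosen on its response to vitamin C, a difference between these 2 responses was not tested.

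No H19 read was counted in the 4 control Treg, 2 naive and 2 Th0 libraries, and 1 read was found in the 4 Tet2/3-deficient libraries together. In the restimulation table, restimulated Foxp3-negative cells had 0, 0 and 0 reads, against 3, 13 and 9 in day 6 iTreg cells. With 3 counts over the group as the floor, H19 was at least 7.97-fold lower in the restimulated cells. The gene was under the filter on low counts there, so it was not tested. Day 6 iTreg cells of that table, cultured with TGFb and sorted as Foxp3-positive, thus held H19 reads in every library, at 0.242 to 0.755 CPM. The 2 TGFb cultures of the first table held 0 and 0.0954 CPM, levels set side by side across separate tables with no test.

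Igf2, like H19, was highest in the combined cultures, but it was also present in ex vivo Treg cells. It had 21.5 and 29.3 CPM with TGFb, retinoic acid and vitamin C, against 1.04 and 2.03 CPM with TGFb and vitamin C, a log2 fold change of 4.03 ± 0.37 (16.3-fold), with no test for the same reason as for H19. Retinoic acid added to TGFb alone gave 18 and 19 reads, against 3 and 0 in TGFb cultures, a ratio of CPM of 12.9 (exact 95% counting interval 4.07 to 65.2, adjusted p = 0.0139). That call was lost without TGFb library 2 (adjusted p = 0.0847), without TGFb and retinoic acid library 1 (0.0655) or 2 (0.0556), and with limma on log2 FPKM (0.0552). As a description, vitamin C gave 25.4 ± 5.48 CPM against 1.80 ± 0.143 CPM in the presence of retinoic acid (SD, n = 2 each), a log2 fold change of 3.79 (13.9-fold). In its absence, 33 reads with vitamin C stood against 3 with TGFb alone, a ratio of CPM of 11.02 that rests on those 3 reads. All 4 of these pairs of groups lay apart.

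In Treg cells sorted ex vivo, Igf2 had 2.16, 1.19, 1.92 and 2.08 CPM in the Tet2/3-deficient libraries, against 3.15, 2.58, 1.82 and 2.53 CPM in the control libraries. The groups overlapped, with a log2 fold change of -0.49, given with no test. Control Treg cells were above naive cells, which had 0 and 0.622 CPM, by a log2 fold change of 2.86 ± 0.68 (adjusted p = 0.00498). Without naive library 1 it was 1.87, and without naive library 2, which holds all 6 naive reads, no naive read is left. Igf2 reached this test through the control libraries, where it is high, so nothing is read from its p-value. Th0 cells had 0 reads against the 6 naive reads, which is at least 2.08-fold lower (adjusted p = 0.0719 by edgeR, below the threshold by DESeq2, at 0.0187). Those reads lie in a single library, and Igf2 reached the edgeR test through the cultures in which it is high, so nothing is read from these p-values. In the restimulation table Igf2 had 0, 0 and 0 reads in Foxp3-negative cells and 2, 9 and 6 in day 6 iTreg cells. That is at least 5.42-fold lower, under the filter on low counts and not tested.

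Per length of exon, the 3 genes reached unequal levels. In the combined cultures, H19 stood at 28.9 ± 1.62 FPKM, Igf2 at 6.00 ± 1.29 FPKM and Plagl1 at 2.85 ± 0.455 FPKM (count per length of exon and per library total, SD, n = 2). H19 was there above Igf2r, at 23.2 ± 5.29 FPKM. In control Treg cells H19 was at 0, Igf2 at 0.595 ± 0.128 FPKM and Plagl1 at 4.62 ± 0.528 FPKM (SD, n = 4), with Igf2r at 61.7 ± 4.03 FPKM.

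Markers of other cell types were summed in the same cultures. The 10 stromal markers, of cells that express H19 and Igf2 in many tissues, summed to 0.962 to 1.80 CPM with TGFb, retinoic acid and vitamin C, where H19 was highest, against 4.80 to 6.04 CPM with TGFb and vitamin C, 1.32 to 1.80 CPM with TGFb and retinoic acid and 6.67 to 7.02 CPM with TGFb alone. Dcn, Lum and Col3a1 were at 0 in all 4 kinds of culture; Dcn is itself on the list of imprinted genes below. Sparc made up most of the sum with TGFb alone, at 6.06 CPM, against 0.435 CPM in the combined cultures. The 6 immature thymocyte markers summed to 64.1 to 72.3 CPM in the combined cultures, 27.8 to 33.6 CPM with vitamin C, 27.2 to 27.8 CPM with retinoic acid and 14.8 to 17.4 CPM with TGFb alone, with Rag1 at 0 in each of these 4 groups and nearly all of the sum from Dntt, Cd8a and Cd8b1. The 5 B cell markers summed to 11.6 to 14.6, 4.52 to 6.80, 5.81 to 6.05 and 3.05 to 3.47 CPM in the same order, with 2 of 5 detected in each. The sum of the 7 erythroid and platelet markers ran the other way, at 8.66 to 16.3 CPM in the combined cultures and 130 to 179 CPM with TGFb alone. Alas2, on that list, did not, at 0.880 and 0.228 CPM. The part of these cells in the levels of H19 and Igf2 was not tested.

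Igf2 signals through the IGF1 receptor and the insulin receptor, and a list of 20 further genes of insulin-like signalling held 12 that could be tested. Of these, 6 fell and 0 rose when retinoic acid was added to TGFb and vitamin C (50% of those tested, where 15.1% of all genes passed, with a median log2 fold change of -0.44, against 0.01 over all genes). Among them Igf1r, the receptor, was at 11.6 ± 4.07 CPM with retinoic acid and 24.4 ± 3.36 CPM without it (-1.09 ± 0.21, adjusted p = 0.00284), and Igfbp7, which binds IGFs, at 31.0 ± 8.31 and 149 ± 28.9 CPM (-2.28 ± 0.21, adjusted p = 1.83e-05). Retinoic acid added to TGFb alone lowered 4 and raised 0 of the 12, where 16.5% of all genes passed. In Tet2/3-deficient Treg cells 4 fell and 1 rose, with Igf1r at 61.0 ± 7.27 CPM against 117 ± 20.8 CPM in control cells (SD, n = 4 each, -0.98 ± 0.12, adjusted p = 0.000205), while 32.5% of all genes tested passed.

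Igf2r, the receptor for IGF2 and for mannose 6-phosphate, had the highest level of the 8 genes in every group except H19 in the combined cultures, per length of exon. Its CPM were 450, 394, 432 and 407 in Tet2/3-deficient Treg cells, against 589, 568, 505 and 545 in control Treg cells. The groups did not overlap, and the log2 fold change was -0.43, given with no test. Naive cells had 254 and 245 CPM, and control Treg cells, high libraries of the choice, lay above them by 1.00 ± 0.08 on the log2 scale (2.00-fold), with no test.

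Among cultured cells, Igf2r had 96.4 and 94.1 CPM in Th0 cells, lower than in naive cells by -1.42 ± 0.23 on the log2 scale (adjusted p = 0.00037). TGFb cultures had 172 and 134 CPM, 0.65 ± 0.23 above Th0 cells, which did not pass the threshold in the fit of all 12 libraries (adjusted p = 0.0672) but did with only those 2 groups in the fit (0.000604) and with limma (0.0459). With TGFb and vitamin C it had 255 and 198 CPM, above both TGFb libraries (log2 fold change 0.54, a description). With retinoic acid as well, 241 and 174 CPM overlapped the 211 and 141 CPM of cultures without vitamin C (0.22). Retinoic acid itself gave 0.19 ± 0.23 without and -0.13 ± 0.22 with vitamin C (adjusted p = 0.615 and 0.783), with overlapping groups. In the order of mean levels, naive cells, vitamin C, the combined culture, retinoic acid and TGFb alone each overlapped the next, while control Treg, Tet2/3-deficient Treg and Th0 cells stood apart from their neighbours.

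Restimulated Foxp3-negative cells had 165, 145 and 186 CPM of Igf2r, against 132, 121 and 145 CPM in day 6 iTreg cells (0.24 ± 0.09, adjusted p = 0.0276). That call was lost without restimulated library 1 (0.0579) or 3 (0.110) and without day 6 library 1 (0.140) or 2 (0.0984). In the same comparison 7 of 9 other genes of mannose 6-phosphate sorting rose and 0 fell (77.8%, where 68.8% of all genes passed). Gnptab, whose enzyme adds the mannose 6-phosphate tag, was at 61.1 ± 1.55 CPM in restimulated and 27.1 ± 0.381 CPM in day 6 cells (1.09 ± 0.06, adjusted p = 8.42e-10). In the other comparisons 0 to 5 of the 9 passed, where 7.54% to 72% of all genes did. The 5 were for Th0 over naive cells (55.6% of the list, where 72% of all genes passed).

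Airn, the noncoding RNA that silences paternal Igf2r in mouse embryos and overlaps it, was raised by retinoic acid. It had 1.41 ± 0.0108 CPM with TGFb and retinoic acid and 0.325 ± 0.0557 CPM with TGFb (2.06 ± 0.63, adjusted p = 0.0361), and 2.69 ± 0.407 against 0.930 ± 0.513 CPM in the presence of vitamin C (1.51 ± 0.45, adjusted p = 0.0334). Th0 cells were lower than naive cells in both genes, Airn at 0.297 ± 0.282 against 2.77 ± 1.21 CPM (-3.21 ± 0.58, adjusted p = 0.000144). Slc22a2, an organic cation transporter gene of the same cluster, was at 0 in all cultured groups of the first table. It fell to 2.64 ± 0.711 CPM in Tet2/3-deficient Treg cells, against 5.95 ± 1.14 CPM in control Treg cells (-1.21 ± 0.22, adjusted p = 0.00152).

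Cdkn1c, the inhibitor p57, had its highest levels in ex vivo Treg cells, with 7.02, 10.8, 9.45 and 5.10 CPM in Tet2/3-deficient and 10.6, 8.93, 9.51 and 7.81 CPM in control libraries, which overlapped (log2 fold change -0.22, with no test). Control Treg cells exceeded naive cells, at 2.62 and 1.66 CPM, by 1.96 ± 0.26 on the log2 scale (adjusted p = 0.000105). Th0 cells had 4.10 and 3.47 CPM, also above naive cells (0.79 ± 0.29, adjusted p = 0.0222), a call lost with DESeq2 (0.0856), without naive library 2 (0.187) and without Th0 library 1 (0.108). TGFb cultures had 4.83 and 6.01 CPM, and did not pass against Th0 cells (0.48 ± 0.24, adjusted p = 0.158).

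With retinoic acid and TGFb, Cdkn1c had 3.31 and 2.90 CPM, below both TGFb libraries by -0.81 ± 0.25 on the log2 scale (adjusted p = 0.0391). The call was lost with DESeq2 (0.156), with only those 2 groups in the fit (0.0558), and whichever library was left out: without retinoic acid library 1 or 2 the adjusted p was 0.101 and 0.134, and without TGFb library 1 or 2 it was 0.0742 and 0.212. With vitamin C in both arms, 3.37 and 4.30 CPM stood against 5.86 and 5.54 CPM (-0.57 ± 0.24, adjusted p = 0.134). As a description, vitamin C gave 0.05 without and 0.29 with retinoic acid. Restimulated Foxp3-negative cells held 0.443, 0.882 and 0.903 CPM, below the 3.46, 4.41 and 4.47 CPM of day 6 iTreg cells (-2.49 ± 0.26, adjusted p = 6.19e-07).

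Other inhibitors of cyclin-dependent kinases were set beside it. Retinoic acid lowered 3 and raised 0 of 6 tested, both without and with vitamin C, where 16.5% and 15.1% of all genes passed. Cdkn1a, the inhibitor p21, was at 14.2 ± 2.24 CPM with TGFb and retinoic acid and 48.5 ± 4.08 CPM with TGFb (-1.78 ± 0.16, adjusted p = 3.81e-06). In restimulated against day 6 cells, 4 of 6 rose and 2 fell, where 68.8% of all genes passed. Cdkn2a rose to 16.6 ± 1.52 CPM in restimulated cells, against 1.95 ± 0.474 CPM in day 6 cells (3.00 ± 0.16, adjusted p = 3.54e-10), while Cdkn1a fell (-0.86 ± 0.08, adjusted p = 1.24e-07). Kcnq1ot1, the noncoding RNA that silences paternal Cdkn1c in the mouse, was abundant in ex vivo Treg cells, at 49.6 ± 6.41 CPM in Tet2/3-deficient and 51.0 ± 11.8 CPM in control libraries (SD, n = 4 each), against 1.63 ± 0.256 CPM in naive cells (control over naive 4.82 ± 0.30, adjusted p = 1.81e-06). It was at 1.38 to 2.74 CPM on average in the cultured groups of the first table, but at 27.0 ± 6.56 CPM in restimulated and 18.3 ± 1.76 CPM in day 6 cells of the other table, which was not tested against the first.

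**Figure D2:**
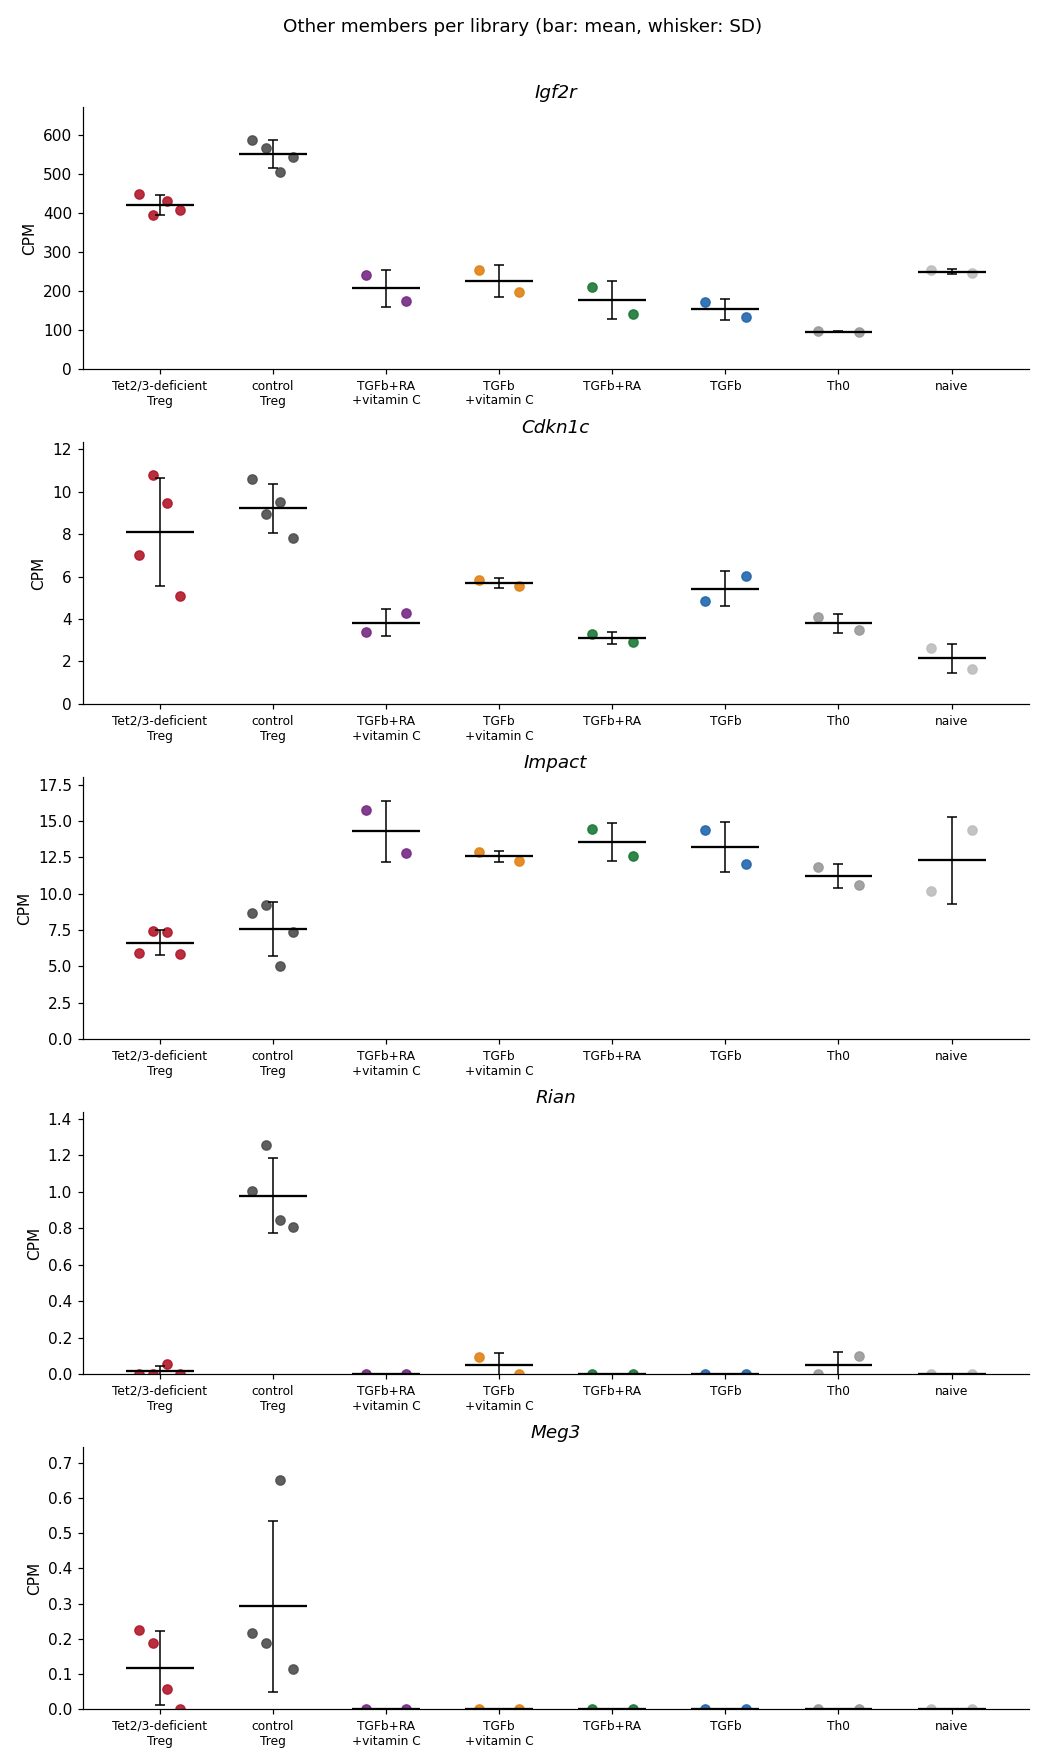
CPM of Igf2r, Cdkn1c, Impact, Rian and Meg3 in each library of the first table (points), with the group mean (bar) and SD (whisker), for 4 Tet2/3-deficient and 4 control Treg libraries and 2 libraries in each other group. Rian stands out in control Treg cells at 0.804 to 1.26 CPM, while Igf2r falls in the order control Treg, Tet2/3-deficient Treg, naive, and is lowest in Th0 cells.

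Rian was counted almost only in control Treg cells. The Tet2/3-deficient libraries had 0, 0, 1 and 0 reads, against 14, 20, 13 and 14 reads in the control libraries. Every Tet2/3-deficient library lay below every control library, with CPM 60.4-fold lower over the group. That ratio rests on 1 read and is given with no test, because this difference entered the choice of genes. No read was counted in naive cells, and control Treg cells were at least 6.35-fold higher than naive cells, with no test because the control libraries are the high side of the choice. Of the 10 cultured libraries of the first table, 1 with TGFb and vitamin C and 1 of Th0 cells had 1 read each and the rest had 0, as did all 6 of the restimulation table. The 6 immature thymocyte markers, all detected in both groups, summed to 4.80 to 7.39 CPM in Tet2/3-deficient and 25.4 to 29.7 CPM in control cells. That difference lay in Cd8b1, at 2.78 and 21.2 CPM, and Cd8a, at 1.29 and 5.52 CPM in Tet2/3-deficient and control cells, while Dntt (1.06 and 0.7099 CPM) and Ptcra (0.415 and 0.364 CPM) ran the other way. Their part in the Rian values was not tested.

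Meg3, of the same cluster, had 3, 3, 1 and 0 reads in Tet2/3-deficient and 3, 3, 10 and 2 reads in control Treg cells, which overlapped. Naive and cultured libraries of the first table had no Meg3 read. Against the 0 naive reads, control Treg cells were at least 1.88-fold higher, under the filter on low counts and not tested. Restimulated cells had 0, 0 and 2 reads and day 6 iTreg cells 2, 2 and 1. Dlk1, the paternally expressed protein-coding gene at the other end of that cluster, went the other way from Rian between the ex vivo groups. It had 2.34 ± 1.07 CPM in Tet2/3-deficient and 0.610 ± 0.311 CPM in control Treg cells (1.92 ± 0.40, adjusted p = 0.00369). Among cultures Dlk1 had 0 reads with TGFb, retinoic acid and vitamin C, where H19 was highest, against 21 reads with TGFb and vitamin C, 13 with TGFb and retinoic acid and 31 with TGFb alone (combined over TGFb and vitamin C, adjusted p = 0.00231).

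Impact was at similar levels in all cultures. It had 15.8 and 12.8 CPM with TGFb, retinoic acid and vitamin C, 12.8 and 12.3 CPM with TGFb and vitamin C, 14.5 and 12.6 CPM with TGFb and retinoic acid, 14.4 and 12.0 CPM with TGFb, and 11.8 and 10.6 CPM in Th0 cells. Retinoic acid and TGFb gave no call in the 3 tests among them (adjusted p = 0.951, 0.591 and 0.434), and the log2 fold changes of vitamin C were -0.10 without and 0.06 with retinoic acid. Ex vivo, 5.90, 7.42, 7.36 and 5.84 CPM in Tet2/3-deficient cells overlapped 8.67, 9.24, 5.01 and 7.35 CPM in control cells (-0.22, with no test). Control Treg cells were below naive cells, at 10.2 and 14.4 CPM (-0.84 ± 0.25, adjusted p = 0.0149), a call that rests on naive library 2, without which the adjusted p was 0.191.

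Impact rose in restimulated Foxp3-negative cells, to 19.6, 17.5 and 20.1 CPM, against 8.62, 8.54 and 9.75 CPM in day 6 iTreg cells (1.00 ± 0.10, adjusted p = 5.39e-07). Of 10 genes of the amino acid stress response that it acts in, 4 rose and 5 fell in that comparison, where 68.8% of all genes passed. Asns, asparagine synthetase, fell to 3.54 ± 0.873 CPM in restimulated cells, against 14.3 ± 1.53 CPM in day 6 cells (-2.08 ± 0.16, adjusted p = 2.24e-08), and Atf4, the transcription factor of that response, fell as well (-1.08 ± 0.06, adjusted p = 1.02e-09). Plagl1 moved opposite to Impact there, with 0, 1 and 1 reads in restimulated and 9, 17 and 13 reads in day 6 cells, a ratio of CPM of 18.7-fold lower (exact 95% counting interval 4.83 to 159, adjusted p = 3.72e-05). Plagl1 passed the filter on low counts through the day 6 libraries, where it is high, so for that comparison its reads are a description. Markers of other cells differed there too. Stromal markers summed to 0.838 to 1.24 CPM in restimulated and 4.61 to 6.53 CPM in day 6 cells, nearly all from Sparc (0.174 and 4.67 CPM), while Col6a1 ran the other way (0.796 and 0.113 CPM). Erythroid and platelet markers summed to 21.6 to 27.2 CPM in restimulated and 65.9 to 96.9 CPM in day 6 cells. The difference lay mostly in Hbb-b1 (0 and 46.3 CPM), while Alas2 (0.238 and 0.210 CPM) ran slightly the other way. Myeloid and dendritic markers summed to 71.2 to 76.1 CPM in restimulated and 110 to 131 CPM in day 6 cells, mostly from Cst3 (73.3 and 115 CPM). Adgre1, a macrophage marker on that list, averaged 0.021 and 4.88 CPM, while Fcgr3 (0.229 and 0.0445 CPM) and Lyz2 (0.0215 and 0 CPM) ran the other way. Their part in the values of the 8 genes was not tested.

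**Figure D3:**
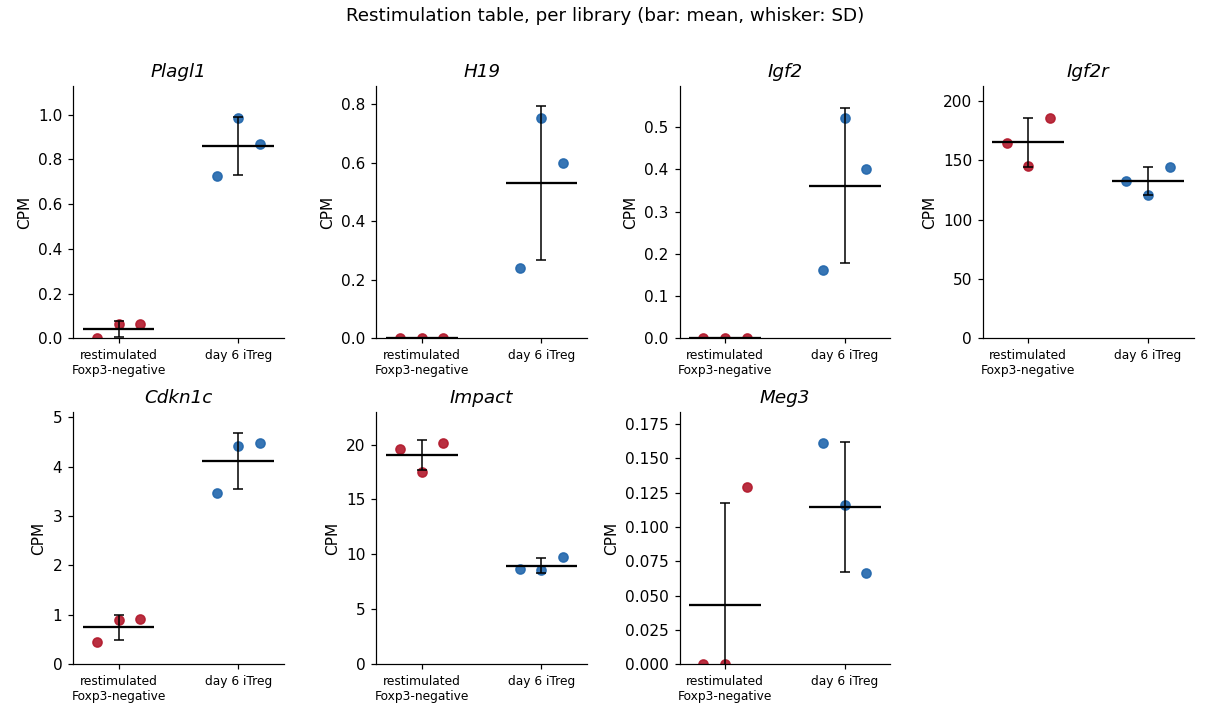
CPM in each of 3 libraries of restimulated Foxp3-negative cells (left) and of day 6 iTreg cells (right) for 7 of the genes, with mean (bar) and SD (whisker); Rian had no read. H19 and Igf2 are at 0 in the restimulated cells, Plagl1 and Cdkn1c are lower there, and Impact is higher, at 17.5 to 20.1 CPM.

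Counted over the 8 genes, the tested comparisons stood against the background as follows. With retinoic acid added to TGFb, 3 of the 8 passed (H19 and Igf2 higher, Cdkn1c lower), 3 did not and 2 were under the filter on low counts, where 16.5% of the 11287 genes tested passed. Left-out libraries brought the 3 down to 1 or 2. For TGFb over Th0, 1 of the 6 tested passed (Plagl1). H19, with 1 read against 0, and Igf2, with 3 against 0, reached this test through the cultures in which they are high. The count is therefore not read against the 26.1% of all genes tested that passed. For Th0 over naive cells 2 of the 6 tested passed (Cdkn1c higher, Igf2r lower). H19 had no read in either group, and Plagl1 (2 against 4 reads) and Igf2 (0 against 6) had few. They too reached the test through those cultures, so the count is not read against the 72% of all genes that passed. For restimulated over day 6 cells all 4 that were tested passed, 2 in each direction, where 68.8% of 11252 genes did, and the other 4 were under the filter. Plagl1 reached this test through the day 6 libraries, so the count is not read against that share. With retinoic acid added beside vitamin C, 6 of the 8 were above the filter. Of these, Plagl1, H19 and Igf2 are given as values only and the other 3 did not pass, where 15.1% of all genes did. For control Treg over naive cells, 6 were above the filter and 2, H19 and Meg3, under it. Of the 6, Plagl1, Igf2r and Rian are given as values only, and Igf2, Cdkn1c and Impact passed, where 54.9% of 11738 genes did. Igf2 reached that test through the control libraries, so this count is not read against that share either. A gene could reach these tests through the group in which it is high, so the counts are descriptions.

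In the comparisons behind the choice of genes, vitamin C without retinoic acid put 4 of the 8 wholly above (Plagl1, H19, Igf2 and Igf2r) and 0 below, where 34.4% of all genes tested lay above. With retinoic acid it put 4 above (Plagl1, H19, Igf2 and Cdkn1c), where 24.2% of all genes did. In Tet2/3-deficient Treg cells 3 lay wholly below the control libraries (Plagl1, Igf2r and Rian) and 0 above, where 12.8% of all genes lay below. Nothing is read from these counts.

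**Figure D4:**
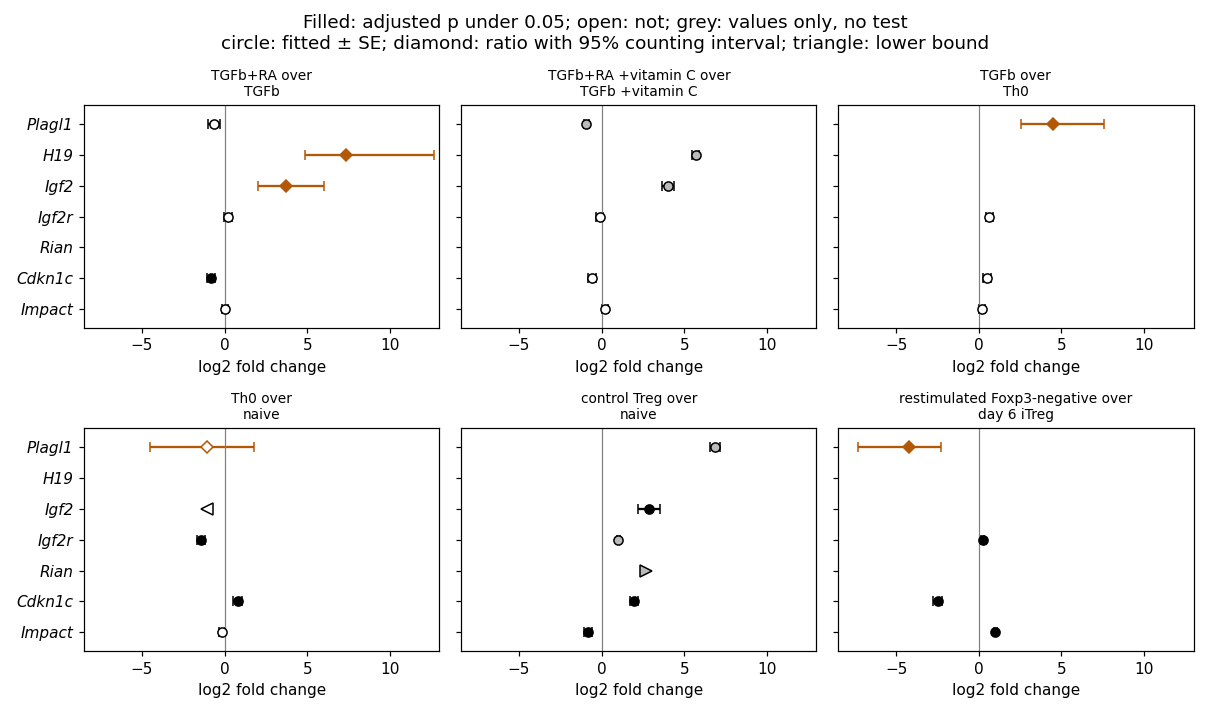
Log2 fold change of each gene in the 6 tested comparisons. Circles are fitted values with SE, diamonds are ratios of CPM with an exact 95% counting interval where a group had 1 to 3 reads, triangles are lower bounds where a group had 0, and black or brown filled symbols passed an adjusted p of 0.05 and grey symbols are values with no test; genes under the filter on low counts, or with at most 3 reads in both groups, are not drawn. H19 and Igf2 lie to the right in both comparisons with retinoic acid, at a ratio of 164 for H19 without vitamin C.

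Another 61 imprinted genes were listed beside the 8, 25 of which could be tested in each comparison of the first table and 22 in the restimulation table. The 8 genes were picked out of the same family, so the remainder are not a neutral sample. Retinoic acid added to TGFb changed 9 of the 25 (36%, where 16.5% of all genes passed). By the allele that the list assigns, all 5 that rose are paternal (of 10 tested, median log2 fold change 0.61, against 0.02 over all genes). All 4 that fell are listed as maternal (of 15 tested, median -0.04). The libraries do not separate the alleles of these genes either, so the assignment was not tested in these cells. Ddc, dopa decarboxylase, rose to 4.38 ± 0.0424 CPM, against 0.790 ± 0.173 CPM with TGFb (2.44 ± 0.37, adjusted p = 0.00032). Cd81, a tetraspanin of the T cell surface, fell to 44.9 ± 0.610 CPM, against 91.1 ± 1.47 CPM (-1.03 ± 0.09, adjusted p = 2.55e-06). Without TGFb library 1 the count of 9 was 4. The split by allele was not the same elsewhere: beside vitamin C, 3 paternal genes rose and 1 fell (Dlk1) while 4 maternal genes fell, and for TGFb over Th0, 5 maternal genes rose and 1 fell while 1 paternal gene fell. In the presence of vitamin C, 8 of 25 passed, 3 higher and 5 lower (15.1% of all genes), among them Ddc (2.12 ± 0.28, adjusted p = 8.73e-05) and Cd81 (-0.61 ± 0.09, adjusted p = 0.000195), and 5 passed without TGFb and vitamin C library 1 or without combined library 2.

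Vitamin C added to TGFb raised Peg13, a noncoding RNA, to 14.0 ± 0.158 CPM, against 7.43 ± 1.09 CPM (0.89 ± 0.15, adjusted p = 0.00142), and Ddc and Ube3a, and lowered Atp10a, a phospholipid flippase, to 118 ± 17.2 CPM, against 187 ± 34.7 CPM (-0.68 ± 0.13, adjusted p = 0.00386). These 4 of 25 are 16%, where 16.8% of all genes passed, and 1 passed without TGFb library 1, 2 without TGFb library 2 and 2 without vitamin C library 2. With retinoic acid, vitamin C raised 2 (Ddc and Peg13) and lowered 3 of 25 (20%, where 7.54% of all genes passed). That count was 1 without TGFb and retinoic acid library 2 or combined library 1, and 2 without combined library 2. Peg13 had 22.1 ± 0.0377 CPM with and 12.8 ± 0.0444 CPM without vitamin C (0.77 ± 0.14, adjusted p = 0.00245).

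In Tet2/3-deficient Treg cells, 3 of 25 rose and 5 fell (32%, where 32.5% of all genes passed). Peg13 fell to 14.7 ± 2.12 CPM, against 33.2 ± 3.90 CPM in control cells (-1.21 ± 0.12, adjusted p = 3.45e-05), and Ddc to 3.32 ± 0.305 CPM, against 9.25 ± 1.48 CPM (-1.52 ± 0.16, adjusted p = 5.43e-05). TGFb over Th0 changed 7 of 25, 5 higher and 2 lower, where 26.1% of all genes passed, with 3 or 4 passing whichever library was left out. Ddc was lower there (-1.71 ± 0.40, adjusted p = 0.0064). Th0 over naive changed 17 of 25, 10 higher and 7 lower (72% of all genes), with Peg13 at 6.45 ± 0.00882 against 77.3 ± 10.5 CPM (-3.61 ± 0.14, adjusted p = 6.23e-12). Control Treg over naive changed 16 of 25, 13 higher and 3 lower (54.9% of all genes). Between restimulated Foxp3-negative and day 6 iTreg cells 17 of 22 differed, 9 higher and 8 lower in the restimulated cells (68.8% of all genes). Cd81 was at 2.12 ± 0.339 CPM in restimulated and 102 ± 7.96 CPM in day 6 cells (-5.68 ± 0.11, adjusted p = 6.53e-15).

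**Figure D5:**
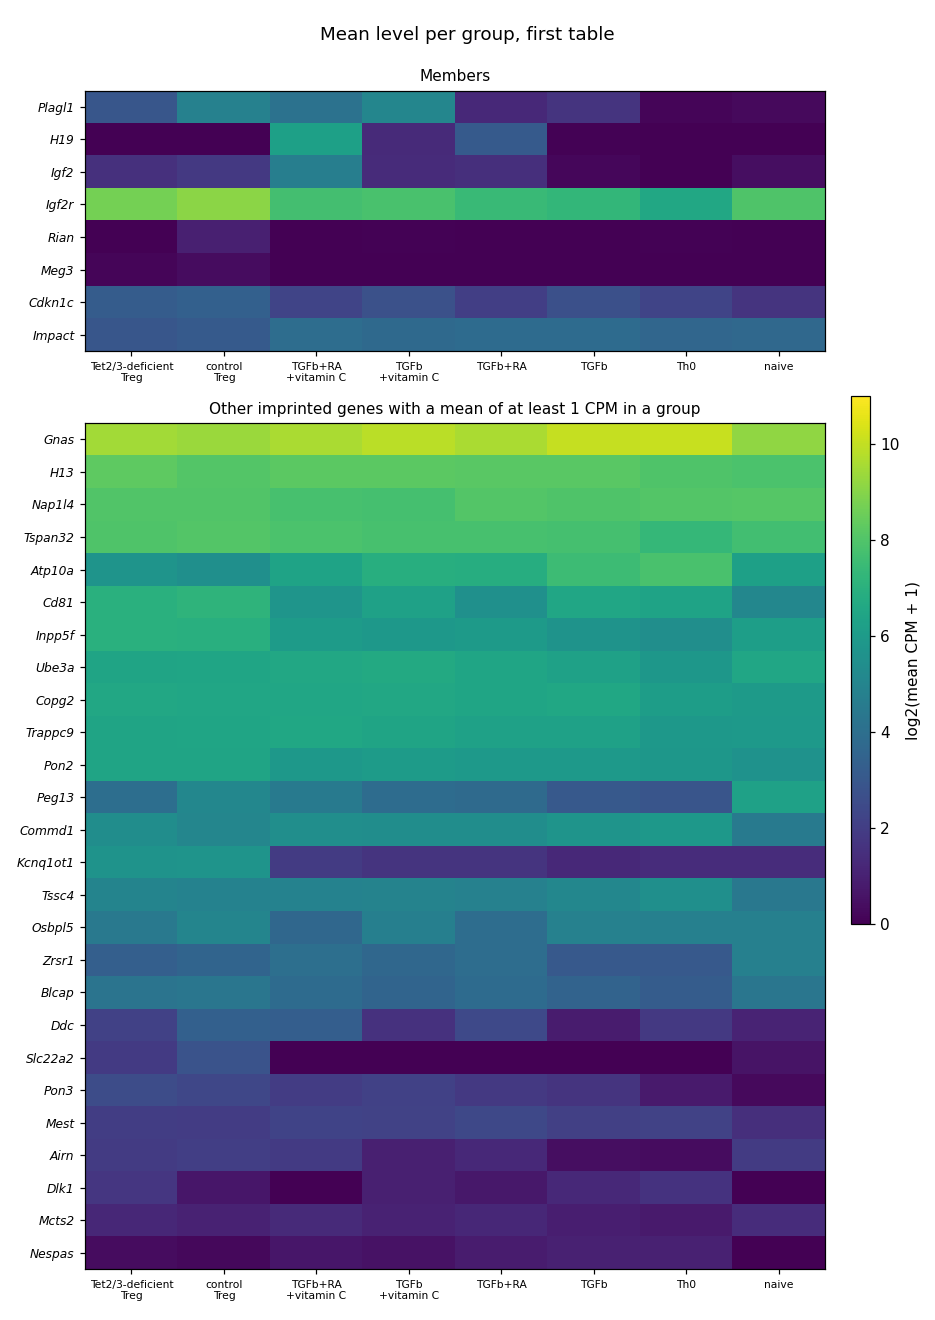
Mean level per group in the first table as log2(mean CPM + 1) (colour), for the 8 genes (top) and for 26 other imprinted genes with a mean of at least 1 CPM in a group (bottom). H19 is brightest in the combined cultures, and Kcnq1ot1 is bright in ex vivo Treg cells.

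The genes whose pattern was most like each of 4 members over the 8 group means of log2(CPM + 1) in the first table were taken from 9525 genes that reached 10 CPM in a group, as a description. Closest to Plagl1 were Athl1 (Pearson r = 0.977), Tnfrsf13b (0.970) and Rnase4 (0.966). Rnase4, a secreted ribonuclease, had 14.0 CPM with TGFb and vitamin C, 5.64 CPM with TGFb, 5.93 CPM in Tet2/3-deficient and 18.4 CPM in control Treg cells. Among the closest to H19 were Dhx34 (0.960) and Fbln2 (0.960). Fbln2, an extracellular matrix protein, averaged 47.7 CPM in the combined cultures, 4.87 CPM with vitamin C and 15.5 CPM with retinoic acid. Closest to Igf2 were Cd8a (0.961), Osgin2 (0.954) and Pnpla6 (0.907), with Cd8a at 20.6 CPM in the combined cultures, 1.59 CPM with vitamin C and 3.30 CPM with retinoic acid. Closest to Igf2r were Tyk2 (0.995), Aplp2 (0.993) and Nfkbie (0.990). The 8 points differ in age, culture and depth, and the closest genes were found among many.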

How the data were processed

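RNA-seq of polyadenylated RNA (a TruSeq stranded mRNA kit, per the labels' protocols) gave 26 libraries in 2 tables. The authors deposited whole-number counts per gene, and FPKM tables beside them, on build mm9 per the submitters' processing notes. Those notes also name TopHat2 2.1.1, Trim Galore 0.4.2, SAMtools 1.7, Picard 2.5.0, bcl2fastq 2.20.0.442 and edgeR 3.26.6, while the counting program's settings are not given in the sources used here. From the deposited counts, CPM were computed over each library's total. From the authors' FPKM, levels were compared between genes and limma 3.58.1 was run on log2(FPKM + 1) as an alternative.

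Differences were tested with edgeR 4.0.16 (R 4.3.3), using TMM factors, filterByExpr and the robust quasi-likelihood test, 2-sided, with Benjamini-Hochberg adjustment over all genes tested called below 0.05. A fit of the 12 libraries from reporter mice of the first table had 6 residual degrees of freedom, while Tet2/3-deficient with control, control with naive and the restimulation table had fits of their own (6, 4 and 4). Tests that reuse a gene's high libraries in the choice of genes (Plagl1, H19 and Igf2 for retinoic acid beside vitamin C, Plagl1, Igf2r and Rian for control Treg over naive) are not reported as tests. SE was the log2 fold change over the square root of F. Where a group had 0 reads, 3 counts over the group served as the floor. Counting intervals (95%, exact) and floors cover counting error only. The fits were tested on simulated data. No 2 replicates were copies: their counts differed by a chi-square of at least 2.289 per degree of freedom. Alternatives were RLE factors, DESeq2 1.42.0, limma, no low-count filter, only the groups compared, a replicate block and each library left out.

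The 8 genes and the lists (imprinted genes, imprint maintenance, insulin-like signalling, mannose 6-phosphate sorting, cyclin-dependent kinase inhibitors, amino acid stress, cell markers) were chosen with earlier results of these data known. All 8 genes are named, and from each list at most the 4 called genes with the largest change per comparison. Columns of the ex vivo libraries were matched to their group, not to a single sample. Genes without a symbol (92 and 99) stayed in the fits. A gene among those most like a member is not reported here.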

Additional observations from a re-analysis of the deposited data

Results flagged for a closer look

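Among the 15 sets of 4 libraries that could be examined for a library far from the rest, 2 stood out. A set with reads in 1 library and 0 in the others is always flagged by the rule used, so these 2 are not set against chance. Both are in Tet2/3-deficient library S7, where H19 and Rian each had 0.0566 CPM, which is 1 read, while the other Tet2/3-deficient libraries had 0.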

How the results depend on the processing

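In the 6 comparisons with tests, fits of the 8 genes, also those given there as values only, were repeated. They kept direction and side of the threshold in 155 cases under other settings and in 122 with a library left out. Of the rest, 4 and 14 lost the call, 5 and 1 gained it, and 2 and 6 changed sign. In the 3 comparisons behind the choice, log2 fold changes stayed within the spread between libraries in 66 fits under other settings. They did so in 90 with a library left out and moved beyond it in 6. Vitamin C without retinoic acid then gave 3.74 to 6.91 for H19 and 2.41 to 6.98 for Igf2. For TGFb over Th0, 2 of the 8 passed instead of 1 with limma, with the replicate block and with only the groups compared. Of the other imprinted genes, vitamin C changed 8 with the replicate block instead of 4, and, beside retinoic acid, 3 with RLE factors, 3 with DESeq2, 2 with limma and 2 with only the groups compared instead of 5. Impact under retinoic acid without vitamin C turned to -0.0017 with RLE factors and -0.0018 with DESeq2. Leaving out 1 library gave ranges, in which a lone library left in a group was assumed to vary like the other groups. The 8 genes gave 1 to 2 calls for retinoic acid and 1 to 3 for Th0 over naive. All genes gave 795 to 1898 calls for retinoic acid, 819 to 1367 for retinoic acid beside vitamin C and 1480 to 1945 for TGFb over Th0, against 1860, 1706 and 2943 with all libraries. Other imprinted genes gave 4 to 9, 5 to 8 and 3 to 4 calls in these 3 comparisons, 1 to 3 for vitamin C and 1 to 4 for vitamin C beside retinoic acid. Log2 fold changes crossed 0 for Igf2r under retinoic acid (-0.139 to 0.44) and beside vitamin C (-0.40 to 0.0932), and for Impact under retinoic acid (-0.11 to 0.16) and for Th0 over naive (-0.39 to 0.11). Those of vitamin C without retinoic acid crossed 0 for Cdkn1c (-0.0949 to 0.207) and Impact (-0.228 to 0.0455). Beside retinoic acid they did so for Igf2r (-0.0442 to 0.542) and Impact (-0.106 to 0.22). The causes were not tested. The libraries share replicate numbers, and all correlations of the deviations of same-numbered libraries were positive. They were 0.0119 to 0.378 in the cultured comparisons, and 0.0755, 0.0894 and 0.184 for restimulation. With 2 libraries per group, the 2 pairs of a cultured comparison give the same value by construction. The largest were for vitamin C, at 0.299 without and 0.378 with retinoic acid. These values do not settle whether the libraries are paired, and the replicate block is given here only. With the block, Igf2r passed for TGFb over Th0 (adjusted p = 0.00059) and Igf2 for Th0 over naive (0.0418). Nothing is read from the second, as all its reads lie in a single naive library. The ex vivo columns carry no shared number. Rian, Meg3 and, outside the cultures with retinoic acid or vitamin C, H19 rest on few reads, which limits every statement on them.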

Other observations

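Genes that write, read or keep imprints were also listed, 22 of 26 of them tested. In Tet2/3-deficient against control Treg cells 6 rose and 1 fell, where 32.5% of all genes passed. Uhrf1, which brings DNMT1 to newly copied DNA, rose by 1.32 on the log2 scale, Dnmt1 by 0.47 and Dnmt3b by 0.40, and the one that fell was Tet3 itself (-0.52). Vitamin C added to TGFb raised 2 and lowered 4, with Tet1 at 0.81 and Uhrf1 at -0.49 (27.3% of the list, where 16.8% of all genes passed). Beside retinoic acid it raised 1 and lowered 1 (9.09%, against 7.54%). Retinoic acid lowered 3 and raised 0 without vitamin C (13.6%, against 16.5%), and raised 1 and lowered 1 with it (9.09%, against 15.1%). In TGFb over Th0 cells 1 rose and 4 fell (22.7%, against 26.1%), in Th0 over naive cells 10 rose and 7 fell (77.3%, against 72%), in control Treg over naive cells 2 rose and 10 fell (54.5%, against 54.9%), and in restimulated over day 6 cells 9 rose and 9 fell (81.8%, against 68.8%).

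Of the 10 genes of the amino acid stress response in which Impact acts, 2 rose and 1 fell in Tet2/3-deficient Treg cells (30%, where 32.5% of all genes passed), with Asns at 1.19 and Trib3 at -1.74 on the log2 scale. None passed by edgeR for retinoic acid without or with vitamin C, where 16.5% and 15.1% of all genes passed.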
